A study of Mus musculus with 12 samples.

Results

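The genes described here encode the plasma proteins of coagulation, fibrinolysis and complement that the liver makes. All 38 genes of the set were found by symbol among the 55836 gene symbols in the files, and all 38 passed the filter on low counts that left 13620 genes to test. The set was listed by function, with earlier results of these data known, and holds 20 genes of coagulation and fibrinolysis and 18 of complement. Liver RNA was sequenced from AhRfl/fl mice, which carry a floxed aryl hydrocarbon receptor gene; the labels name no Cre, so every group carried the floxed allele and the receptor was not labelled as deleted in any. Mice were labelled male, were 8 weeks old at the start and spent 20 weeks on a diet. In the CD group the feed was a control diet (10 kcal% fat, sucrose matched), and injections, if any, are not stated. The MD group ate a diet used to induce steatohepatitis, rich in fat (40 kcal%), fructose (20 kcal%) and cholesterol (2%), and received vehicle (0.2% DMSO in saline) by intraperitoneal injection 3 times a week. The MD+CA group ate the same diet and received 12 mg/kg cinnabarinic acid, a tryptophan metabolite, in DMSO on the same days. Each group has 4 libraries, and the labels do not say that these came from separate mice, so p-values measure the spread between these libraries.

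Most of these proteins are secreted by hepatocytes. In coagulation, a chain of serine proteases ends in thrombin, which turns fibrinogen into fibrin, and plasmin later dissolves the clot. In complement, the classical and lectin pathways and the alternative pathway meet at C3, and the terminal proteins C5 to C9 assemble into a pore in the target membrane. Fibrinogen, C3 and several other members are also acute phase proteins, whose synthesis in hepatocytes rises with interleukin-6 signalling.

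Assigned reads ran from 9089570 to 14492580 per library. Hepatocyte markers were abundant in every library (12 of 13 listed markers were in the files, none at 0, summed level 48871 to 85378 CPM, read counts scaled by library size and TMM). The sex label did not match the reads: Xist had 5122 to 12865 reads in all 12 libraries and the Y-linked genes Ddx3y, Kdm5d, Uty and Eif2s3y had 0, where 3 counts would be 0.203 to 0.380 CPM. A pair of libraries stood apart in the 38 genes. MD+CA replicate 3 had the highest value of all 12 libraries for 19 of the 38, and MD replicate 2 the lowest for 21. MD+CA replicate 3 also had 14024 CPM of Saa2, a serum amyloid A that marks the acute phase response, against 34.4 to 112 CPM in the rest of its group. MD replicate 2 had 17.5% of its assigned reads in mitochondrially encoded genes, against 4.97% to 10.7% in the other 11 libraries. Results are therefore given with and without these libraries where they rest on them.

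The 38 genes took 3.89% ± 0.0489 of assigned reads in CD libraries (SD, n = 4), 2.63% ± 0.566 in MD libraries and 4.40% ± 1.36 in MD+CA libraries. The 4 CD libraries lay within 3.82% to 3.92%, whereas MD ran from 1.88% to 3.26% and MD+CA from 3.48% to 6.41%. All 4 MD libraries lay below all 4 CD and all 4 MD+CA libraries. The coagulation and complement genes had the same order of group means: the coagulation and fibrinolysis genes took 2.40%, 1.63% and 2.63%, and the complement genes 1.49%, 0.994% and 1.77%, in CD, MD and MD+CA. In bulk tissue, fewer hepatocytes and less RNA per hepatocyte cannot be told apart.

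Per transcript length, the genes spanned a wide range. By median over the 12 libraries in TPM (an abundance per transcript length), the order began with Serpinc1 (antithrombin) at 2170 TPM, C3 at 1677 TPM, Kng1 (kininogen) at 1671 TPM, the fibrinogen chains Fgg at 1643, Fgb at 1458 and Fga at 1343 TPM, F10 at 1211 TPM and Mbl2 (a mannose-binding lectin) at 1140 TPM. The first entry includes a short transcript annotated for nonsense-mediated decay, and the levels of these 8 genes overlapped between libraries. At the other end stood C8b at 28.5 TPM, Masp1 at 28.4 TPM, C2 at 18.7 TPM and C6 at 2.88 TPM, and C6 was the lowest of the 38. The other terminal genes were C8a at 75.0 TPM, C9 at 121 TPM, C8g at 185 TPM and Hc at 239 TPM.

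**Figure D1:**
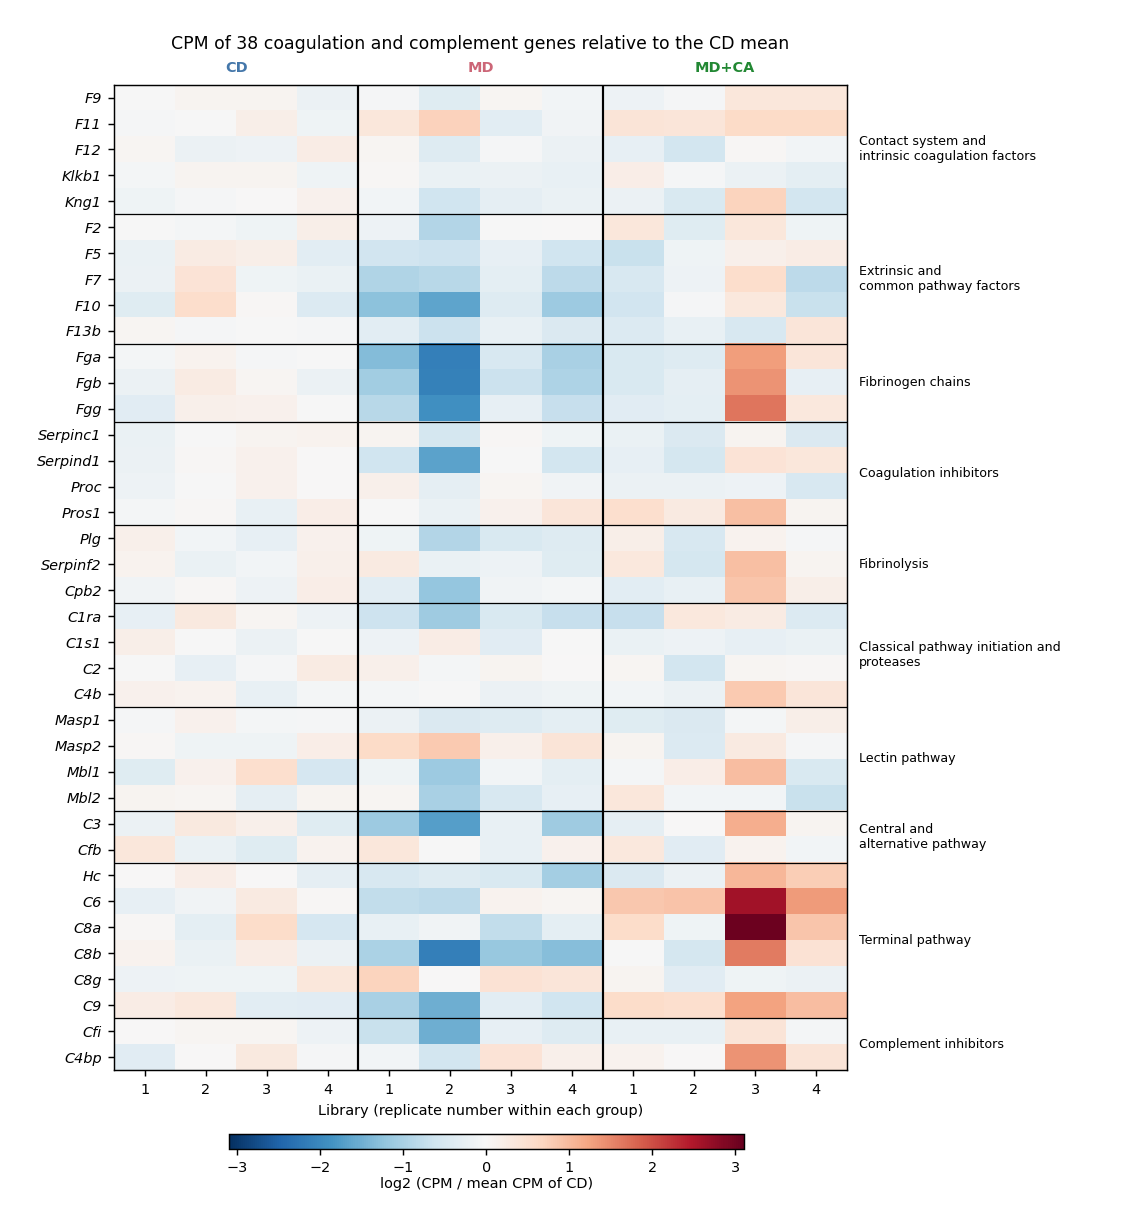
Heat map of the 38 genes (rows, grouped by role) in the 12 libraries (columns, 4 per group). Colour gives log2 of the CPM over the mean CPM of CD, from blue (lower) to red (higher). The fibrinogen chains, C3 and C8b are blue in MD, most of all in replicate 2, and the fibrinogen chains, C3 and the terminal genes apart from C8g are reddest in MD+CA replicate 3.

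The first comparison, MD against CD, asks what the diet with vehicle changed. None of the 38 genes passed the test (edgeR quasi-likelihood test, Benjamini-Hochberg adjusted p under 0.05; 0.0881% of all tested genes passed). Below an unadjusted p of 0.05 were 11 of the 38, against 20.0% of all genes; 10 of these were lower in MD (9.41% of all genes) and 1, Masp2, was higher (10.6% of all genes). DESeq2, run as an alternative, passed 3 of the 38 (C8b, F10 and Fga), all lower in MD, and 632 of all 13620 genes. The log2 fold change was below 0 for 31 of the 38 (46.3% of all genes), with a median of -0.33 beside 0.04 for all genes tested. With 1 library left out this median of the 38 ran from -0.37 to -0.18, and under the other alternatives from -0.37 to -0.19. All 4 MD libraries lay below all 4 CD libraries for 9 genes (7.12% of all genes): Fga, Fgb, F7, F13b, C1ra, Masp1, Hc, C8b and Cfi. None had all 4 MD libraries above CD, against 5.99% of all genes.

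The second comparison, MD+CA against MD, asks what cinnabarinic acid changed on this diet. Of the 38 genes, 3 rose (2.78% of all tested genes passed in either direction, and 1.09% rose): C9, C8b and C6, which all encode proteins of the membrane attack pore. None fell. Below an unadjusted p of 0.05 were 15 of the 38 (23.2% of all genes), 13 of them higher (11.6% of all genes) and 2, C8g and Masp2, lower. The log2 fold change was above 0 for 30 of the 38 (49.7% of all genes), with a median of 0.41 beside -0.00 for all genes tested. All 4 MD+CA libraries lay above all 4 MD libraries for 6 genes (4.99% of all genes): Fga, Fgb, C6, C8b, C9 and Cfi. Without MD+CA replicate 3 and MD replicate 2 the median was 0.16 and C9 alone passed; without MD replicate 2 only, C9 alone passed as well.

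The comparison of MD+CA with CD sets the treated mice on the diet beside the control diet. None of the 38 passed the test (edgeR; 0.529% of all genes passed), and 5 had an unadjusted p under 0.05 (10.5% of all genes), all higher in MD+CA (6.18% of all genes): C6, C8a, C9, Pros1 and F11. DESeq2 passed 1, C6, higher in MD+CA, and 333 of all 13620 genes. Of the 38, 20 were above 0 (52.0% of all genes) and 18 below, with a median of 0.04 beside 0.02 for all genes tested. All 4 MD+CA libraries lay above all 4 CD libraries for C6, C9 and F11 (3.50% of all genes) and below them for Proc (2.91% of all genes). The same MD libraries enter the first and second comparison, and the CD and MD+CA libraries likewise enter 2 comparisons each, so the values are given side by side and are not independent.

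**Figure D2:**
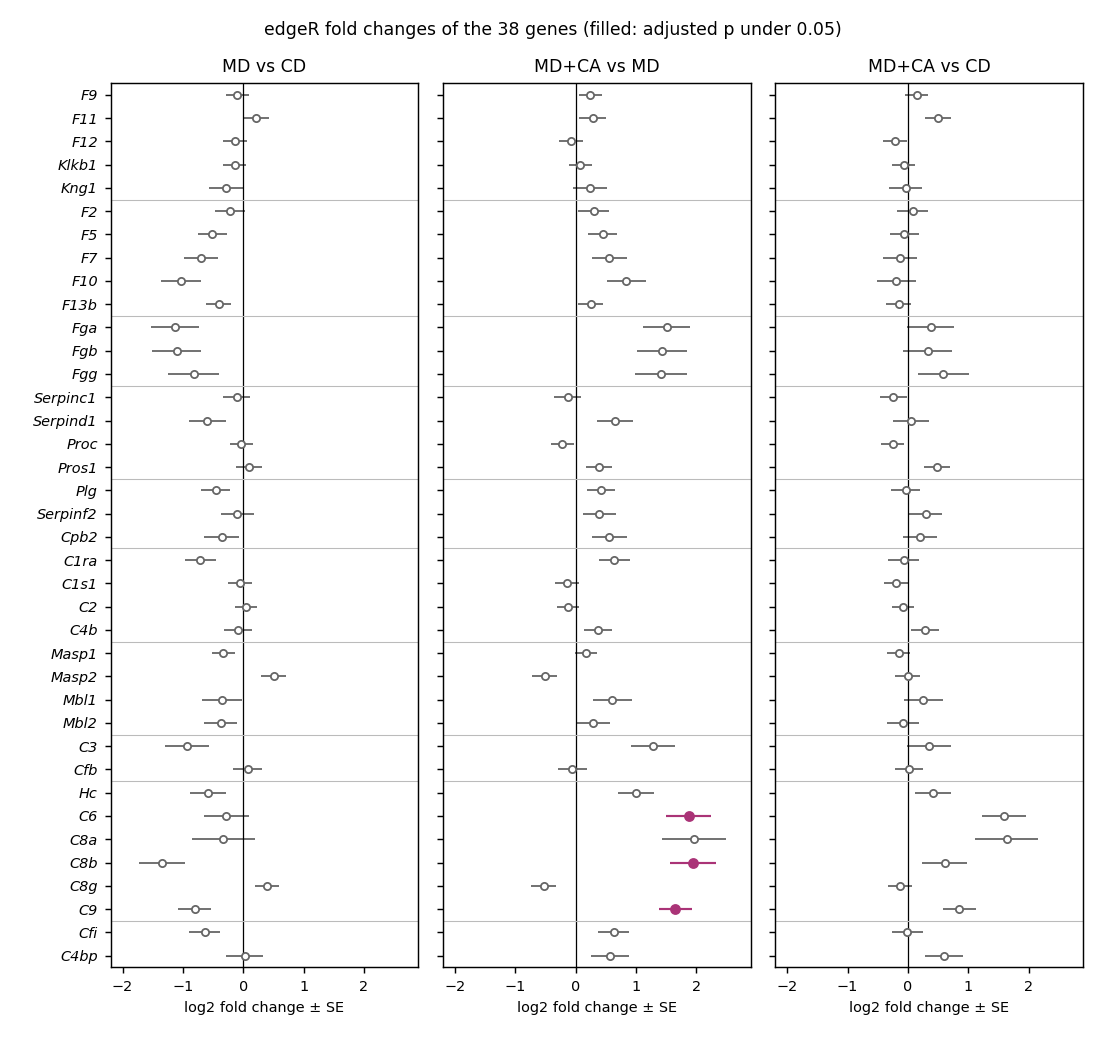
Fold changes of the 38 genes in the 3 comparisons. Points are edgeR log2 fold changes and bars ± 1 standard error; filled points passed an adjusted p of 0.05 over all genes tested. Most points lie left of 0 for MD against CD and right of 0 for MD+CA against MD, where C6, C8b and C9 are the 3 filled points.

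In the contact system and the intrinsic branch of coagulation, the group values stayed close together. Factor IX (F9), factor XII (F12), plasma prekallikrein (Klkb1) and kininogen (Kng1) had log2 fold changes from -0.28 to 0.24 over the 3 comparisons, and none of the 4 had an unadjusted p under 0.05 in any. Factor XI (F11), which activates factor IX, had 87.0 ± 8.19 CPM in CD, 100.9 ± 33.5 CPM in MD and 123 ± 9.96 CPM in MD+CA (SD, n = 4). Its log2 fold change for MD+CA against CD was 0.50 (edgeR, unadjusted p = 0.0397, adjusted p = 0.426). Its spread in MD exceeded its difference from either other group.

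Among the extrinsic and common pathway factors, all 5 genes were below 0 in MD against CD and above 0 in MD+CA against MD. Factor X (F10), the protease at which the intrinsic and extrinsic branches meet, was at 1266, 2395, 1697 and 1237 CPM in CD replicates 1 to 4. It was at 687, 529, 1251 and 762 CPM in MD and at 1099, 1597, 2060 and 1022 CPM in MD+CA. Of the MD libraries, 3 lay below every other library, and replicate 3 lay within the CD range. The log2 fold change was -1.03 for MD against CD (SE 0.33, edgeR adjusted p = 0.131), a level 2.04-fold lower. For MD+CA against MD it was 0.84 (SE 0.32, edgeR adjusted p = 0.141). Factor VII (F7), which starts the extrinsic branch with tissue factor, had a mean of 453 CPM in CD, 279 CPM in MD and 412 CPM in the MD+CA libraries, with log2 fold changes of -0.70 and 0.56 in the first and second comparison. F7 and F10 lie next to each other in the genome, by the gene order of RefSeq's GRCm38.p6. Factor V (F5), the cofactor of factor Xa, differed by -0.52 and 0.45. Prothrombin (F2) differed by -0.22 and 0.30, and the factor XIII B subunit (F13b), the carrier of the enzyme that cross-links fibrin, by -0.41 and 0.26. None of these passed the test.

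In MD+CA against MD the fibrinogen chains had the largest differences within coagulation. Fga, Fgb and Fgg encode the Aα, Bβ and γ chains that assemble into one molecule, and the 3 genes lie side by side on chromosome 3. The bases upstream of Fga and Fgb are shown because these neighbours had the same order of groups, and because 3 short motifs that are known from acute phase promoters were found in both. Capitals mark matches, on either strand, to TTGCNNAA (C/EBP factors), TTCNNNGAA (STAT factors) and GTTAAT (HNF1 half-site). The sequence for Fga is RefSeq GRCm38.p6 chr3:83025903-83026075, plus strand, and ends where the annotated exon begins; that for Fgb is chr3:83049864-83050113, minus strand.
Fga: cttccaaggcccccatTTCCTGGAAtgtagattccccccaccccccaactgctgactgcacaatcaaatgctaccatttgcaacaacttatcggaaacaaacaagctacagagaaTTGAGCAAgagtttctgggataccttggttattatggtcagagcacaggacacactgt
Fgb: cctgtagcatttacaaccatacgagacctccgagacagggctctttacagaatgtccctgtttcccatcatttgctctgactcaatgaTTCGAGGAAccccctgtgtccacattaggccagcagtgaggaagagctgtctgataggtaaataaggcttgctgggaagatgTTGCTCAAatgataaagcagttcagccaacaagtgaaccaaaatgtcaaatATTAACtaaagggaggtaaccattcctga
In Fga the STAT match lay 234 to 226 bases and the C/EBP match 135 to 128 bases before the RefSeq start. Its HNF1 half-site, at 43 to 38 bases, fell in the annotated exon and is not printed. In Fgb the STAT match lay 162 to 154, the C/EBP match 80 to 73 and the HNF1 half-site 29 to 24 bases before the start. Of 32851 promoter windows of 250 bases, 0.0700% held all 3 motifs; of the 30 members with an entry, Fga and Fgb did. Singly, the C/EBP motif was in 9.56% of all windows and 8 of the 30, the STAT motif in 7.02% and 6, and the HNF1 half-site in 6.43% and 8. For Fgg, which had the same order of group means, no match was recorded, either because its window held none or because it had no entry. A match describes the letters in the window and does not show that a factor binds there.

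Fga was at 2906, 3306, 2989 and 3015 CPM in CD, at 1209, 706, 2150 and 1511 CPM in MD and at 2188, 2296, 7436 and 3935 CPM in MD+CA. Every MD library lay below every other library, and MD+CA replicate 3 was far above the rest. The log2 fold change was -1.13 for MD against CD (SE 0.39, edgeR adjusted p = 0.149) and 1.51 for MD+CA against MD (SE 0.40, edgeR adjusted p = 0.0530), the latter a level 2.84-fold higher. Fgb was at 3846, 5161, 4509 and 3847 CPM in CD, at 2068, 1021, 2752 and 2228 CPM in MD and at 3154, 3562, 11411 and 3669 CPM in MD+CA. It had the same order, with no overlap between MD and either other group, and log2 fold changes of -1.11 (SE 0.41, edgeR adjusted p = 0.167) and 1.43 (SE 0.41, edgeR adjusted p = 0.0670). Fgg was at 2013, 2858, 2802 and 2512 CPM in CD, at 1398, 682, 2131 and 1541 CPM in MD and at 1995, 2050, 8087 and 3174 CPM in MD+CA. MD replicate 3 overlapped the other groups here, and the log2 fold changes were -0.82 (SE 0.43, edgeR adjusted p = 0.293) and 1.41 (SE 0.43, edgeR adjusted p = 0.0794).

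None of the fibrinogen chains passed the edgeR test with all libraries and group as the only term. All 3 passed for MD+CA against MD under DESeq2, without the low-count filter, without MD replicate 3 and without MD+CA replicate 1. Of all genes, 1207, 1031, 962 and 777 passed in these fits, against 378 with all libraries in edgeR. Over the 12 fits that left out 1 library, the edgeR adjusted p reached 0.138 for Fga, 0.173 for Fgb and 0.235 for Fgg. Without MD+CA replicate 3 the log2 fold changes for MD+CA against MD were 1.004 for Fga, 0.77 for Fgb and 0.74 for Fgg. Against CD, where they were 0.38, 0.33 and 0.59 with all libraries, they became -0.14, -0.34 and -0.10 without it. The ratio of the chains per length moved less than their level: Fga to Fgb in TPM was 0.954 ± 0.102 in CD libraries, 0.904 ± 0.0995 in MD libraries and 1.02 ± 0.286 in MD+CA libraries, and Fgg to Fgb was 1.16 ± 0.117, 1.40 ± 0.0762 and 1.36 ± 0.237 (SD, n = 4).

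**Figure D3:**
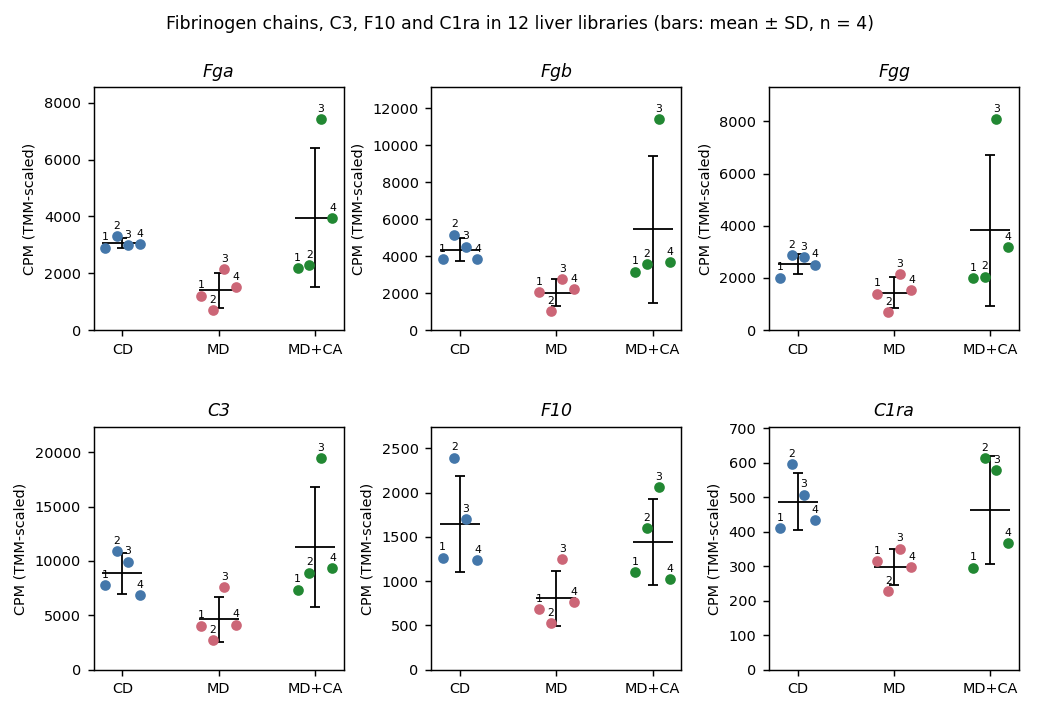
CPM of the 3 fibrinogen chains, C3, F10 and C1ra in each library. Points are libraries, numbered by replicate, on linear axes that start at 0; bars give the mean ± SD of 4 libraries per group. For Fga and Fgb all MD points lie below all others, and MD+CA replicate 3 is the top point in the panels of Fga, Fgb, Fgg and C3.

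The coagulation inhibitors and the fibrinolysis genes differed less. Antithrombin (Serpinc1), which blocks thrombin and factor Xa, had log2 fold changes of -0.11, -0.13 and -0.24 in the 3 comparisons, and protein C (Proc), which inactivates factors Va and VIIIa, of -0.03, -0.22 and -0.25. Protein S (Pros1), the cofactor of protein C, had 84.8 ± 10.5 CPM in CD, 90.4 ± 15.5 CPM in MD and 119 ± 31.4 CPM in MD+CA (SD, n = 4), with an unadjusted p of 0.0393 for MD+CA against CD (edgeR, log2 fold change 0.48, adjusted p = 0.425). Heparin cofactor II (Serpind1) was at -0.59 in MD against CD and 0.65 in MD+CA against MD (edgeR, unadjusted p = 0.0472, adjusted p = 0.210). Plasminogen (Plg), its inhibitor α2-antiplasmin (Serpinf2) and the carboxypeptidase Cpb2, which slows fibrinolysis, were all below 0 in the first comparison (-0.46, -0.10 and -0.36) and above 0 in the second (0.42, 0.39 and 0.56). None of these 7 genes passed the test in any comparison.

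In the complement system, 3 of 4 classical pathway genes and 3 of 4 lectin pathway genes were below 0 in MD against CD, and 2 and 3 of these lists were above 0 in MD+CA against MD. C1ra, a protease of the C1 complex, was at 411, 596, 508 and 434 CPM in CD, at 314, 227, 351 and 298 CPM in MD and at 296, 613, 578 and 366 CPM in MD+CA. All MD libraries were below CD, and MD+CA overlapped both. Its log2 fold changes were -0.71 (SE 0.26, edgeR adjusted p = 0.163) in the first and 0.64 (SE 0.26, edgeR adjusted p = 0.156) in the second comparison. C1s1, the protease that C1r activates and the neighbour of C1ra in the genome, differed by -0.06 and -0.14, C2 by 0.05 and -0.13 and C4b by -0.09 and 0.37. The files also hold close copies of C1ra, C1s1 and C4b (C1rb, C1s2 and C4a), so their counts rest on how reads were divided. C2 lies next to Cfb in the genome. Of the lectin pathway, the mannose-binding lectins Mbl1 and Mbl2 differed by -0.35 and -0.38 in the first and 0.61 and 0.30 in the second comparison, and Masp1 by -0.33 and 0.17. Masp2, the protease that cleaves C4 and C2 in this pathway, went the other way from most of the set. It had 93.8 ± 11.3 CPM in CD, 133 ± 25.6 CPM in MD and 93.4 ± 18.6 CPM in MD+CA (SD, n = 4), with log2 fold changes of 0.51 (edgeR, unadjusted p = 0.0266, adjusted p = 0.199) and -0.51 (edgeR, unadjusted p = 0.0252, adjusted p = 0.155).

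C3, the protein on which all pathways converge, was at 7765, 10906, 9947 and 6826 CPM in CD, at 4056, 2734, 7585 and 4156 CPM in MD and at 7358, 8922, 19435 and 9344 CPM in MD+CA. MD replicate 3 lay within the range of CD and of MD+CA, and the other 3 MD libraries lay below both. The log2 fold change was -0.94 for MD against CD (SE 0.36, edgeR adjusted p = 0.183) and 1.28 for MD+CA against MD (SE 0.37, edgeR adjusted p = 0.0664). Without MD+CA replicate 3 the second value was 0.88. Factor B (Cfb), the protease of the alternative pathway convertase, differed by 0.07, -0.05 and 0.02 in the 3 comparisons. Among the inhibitors, factor I (Cfi), which degrades C3b and C4b, was at -0.64 and 0.63 in the first and second comparison (edgeR, unadjusted p = 0.0264 and 0.0286, adjusted p = 0.199 and 0.165). C4bp, its cofactor for C4b, was at 0.03 and 0.57, with 653 CPM in MD+CA replicate 3 against 249 to 328 CPM in the rest of that group.

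The terminal pathway held all 3 genes that passed the test. Of its 6 genes, 5 were higher and 1 lower in MD+CA than in MD at an unadjusted p under 0.05 (edgeR). Of all genes, 11.6% were higher and 11.6% lower at that p. The median log2 fold change of the 6 was 1.76 with all libraries. Without MD+CA replicate 3 the values of C9, C8b, C6 and C8a fell to 1.49, 1.35, 1.30 and 0.81. C6, C7, C8 and C9 join C5b in turn, and C7 is not a member of the set. C8 is made of the chains α, β and γ, encoded by C8a, C8b and C8g, and C9 polymerises into the pore. The bases upstream of C9, C8b and C6 are shown because these are the genes that rose; capitals mark the same 3 motifs. The windows are RefSeq GRCm38.p6 chr15:6445096-6445326 for C9, chr4:104766067-104766316 for C8b and chr15:4726960-4727174 for C6, all on the plus strand, and those of C9 and C6 end where an annotated exon begins.
C9: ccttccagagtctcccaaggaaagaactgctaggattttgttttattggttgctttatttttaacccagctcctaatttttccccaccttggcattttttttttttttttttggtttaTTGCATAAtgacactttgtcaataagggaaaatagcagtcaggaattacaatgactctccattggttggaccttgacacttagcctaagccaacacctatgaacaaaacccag
C8b: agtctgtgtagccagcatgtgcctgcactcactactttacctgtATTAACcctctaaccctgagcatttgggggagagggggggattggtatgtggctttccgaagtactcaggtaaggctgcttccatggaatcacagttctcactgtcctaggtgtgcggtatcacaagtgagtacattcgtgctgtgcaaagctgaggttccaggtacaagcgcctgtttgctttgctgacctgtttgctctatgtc
C6: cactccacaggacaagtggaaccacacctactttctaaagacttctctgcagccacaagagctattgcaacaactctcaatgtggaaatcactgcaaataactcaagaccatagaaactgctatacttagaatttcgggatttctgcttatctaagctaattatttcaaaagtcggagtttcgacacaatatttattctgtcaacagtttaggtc
C9 held a C/EBP match 132 to 125 bases before the start, C8b an HNF1 half-site 206 to 201 bases before it and C6 none of the 3 motifs, so the genes that rose shared none of the motifs searched. C8a and C8b are neighbours in the genome.

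C9 was at 191, 204, 129 and 128 CPM in CD, at 81.3, 56.8, 129 and 105.5 CPM in MD and at 240.3, 233, 384 and 316 CPM in MD+CA. All 4 MD+CA libraries were above all 8 others. It rose by a log2 fold change of 1.65 in MD+CA against MD (SE 0.28, edgeR adjusted p = 0.0142), a level 3.15-fold higher. It passed in all 12 fits that left out 1 library, with log2 fold changes from 1.48 to 1.86, and at 1.49 without MD+CA replicate 3. Against CD the value was 0.85 (SE 0.27, edgeR adjusted p = 0.204), and for MD against CD it was -0.81 (SE 0.27, edgeR adjusted p = 0.142).

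C8b was at 62.2, 49.6, 67.9 and 50.9 CPM in CD, at 29.0, 13.2, 25.4 and 23.2 CPM in MD and at 57.1, 39.4, 177 and 78.1 CPM in MD+CA. Every MD library lay below every other library, and CD and MD+CA overlapped. It rose by 1.95 in MD+CA against MD (SE 0.38, edgeR adjusted p = 0.0195), a level 3.86-fold higher, and by 1.35 without MD+CA replicate 3 (edgeR adjusted p = 0.0369). Without MD replicate 2 the value was 1.76 and did not pass (edgeR adjusted p = 0.0558). For MD against CD it had the lowest fold change of the set, -1.34 (SE 0.38, edgeR adjusted p = 0.117). DESeq2 and limma voom passed that value, as did edgeR without the low-count filter.

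C6 was at 4.80, 5.27, 6.89 and 5.91 CPM in CD, at 3.36, 3.26, 6.16 and 5.97 CPM in MD and at 10.2, 10.5, 34.6 and 14.3 CPM in MD+CA. It is thinly covered, with a mean of 99.9 reads per library, but all 4 MD+CA libraries lay above all 8 others. It rose by 1.87 in MD+CA against MD (SE 0.37, edgeR adjusted p = 0.0195), a level 3.67-fold higher, and by 1.30 without MD+CA replicate 3 (edgeR adjusted p = 0.0379). Without MD replicate 1 or without MD replicate 2 it did not pass, with 1.74 in both (edgeR adjusted p = 0.0641 and 0.0585). Against CD its log2 fold change was 1.59 (SE 0.37, edgeR adjusted p = 0.0639), and for MD against CD -0.28 (edgeR adjusted p = 0.697).

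The other terminal genes did not pass. C8a was at 112, 88.7, 162 and 76.5 CPM in CD, at 93.1, 102.3, 64.1 and 89.1 CPM in MD and at 162, 99.3, 901 and 200.4 CPM in MD+CA. Its log2 fold change of 1.97 for MD+CA against MD (SE 0.54, edgeR adjusted p = 0.0583) rested on MD+CA replicate 3, without which it was 0.81 (edgeR adjusted p = 0.158). Hc, which encodes C5, was at 461, 520.5, 460.1 and 378 CPM in CD, at 324, 344, 326 and 221 CPM in MD and at 336, 401, 928 and 768 CPM in MD+CA. All MD libraries were below CD, and the MD+CA libraries formed a low and a high pair, with log2 fold changes of -0.58 (SE 0.30, edgeR adjusted p = 0.287) in the first and 1.002 (SE 0.30, edgeR adjusted p = 0.0747) in the second comparison. C8g, whose product is a lipocalin, differed from the rest of the pathway in direction. It was at 108.3, 111, 109 and 155 CPM in CD, at 194, 121, 165 and 156 CPM in MD and at 129, 94.5, 111 and 106.5 CPM in MD+CA, with log2 fold changes of 0.40 (SE 0.20, edgeR adjusted p = 0.290) and -0.53 (SE 0.20, edgeR adjusted p = 0.142).

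Of the ratios between the genes of the C8 chains, that of C8g to C8b alone set MD apart from both other groups. Per length, the ratio of C8g to C8b in TPM was 5.76 ± 1.67 in CD libraries, 17.5 ± 1.51 in MD libraries and 4.52 ± 2.48 in MD+CA libraries (SD, n = 4). The 4 MD libraries lay between 15.95 and 19.1, above all 8 others, whose highest was 7.97. The ratio of C8a to C8b was 1.77 ± 0.225, 5.30 ± 3.29 and 3.36 ± 1.51. Its range was 1.56 to 2.03 in CD, 2.11 to 9.91 in MD and 1.98 to 4.96 in MD+CA, so MD+CA overlapped both. The ratio of C8a to C8g was 0.335 ± 0.129, 0.296 ± 0.165 and 1.17 ± 1.29, and it overlapped between all groups. No test was run on these ratios, and they were not counted over all pairs of genes.

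**Figure D4:**
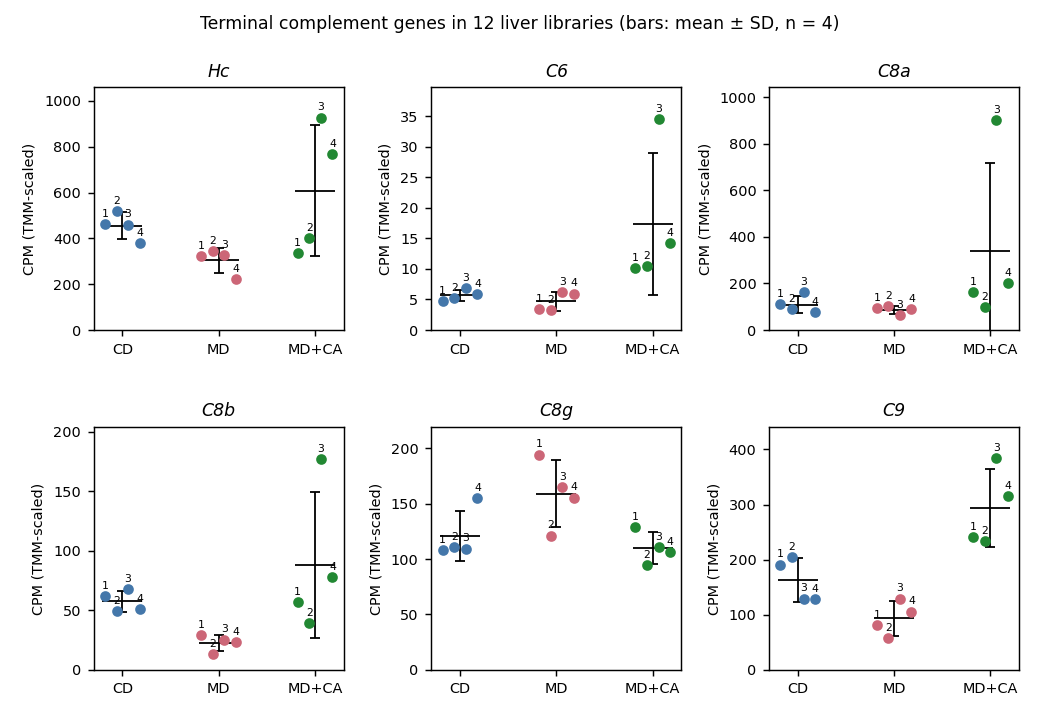
CPM of the 6 terminal complement genes in each library. Points are libraries, numbered by replicate, on linear axes that start at 0; bars give the mean ± SD of 4 libraries per group (the lower bar of C8a in MD+CA reaches below 0 and is clipped by the axis). All MD+CA points of C9 and C6 lie above all others, all MD points of C8b lie below all others, and C8g runs against the rest.

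Other genes of these systems, which are not members, were counted from fixed lists. Of 29 other coagulation and fibrinolysis genes, 22 were tested and none passed in any comparison (edgeR; 2, 6 and 3 at an unadjusted p under 0.05). The smallest p-values were those of S100a10, part of the plasminogen receptor, and Plgrkt, another plasminogen receptor, in MD against CD (log2 fold changes 0.67 and 0.83), of Serping1 (C1 inhibitor, 0.89) and Pzp (an α2-macroglobulin, 0.62) in MD+CA against MD, and of S100a10 (0.79) and F13a1 (the factor XIII A subunit, 2.99) in MD+CA against CD. Of 6 genes of the vitamin K cycle, on which factors II, VII, IX and X depend, and of factor secretion, none passed (edgeR, with 1, 0 and 0 at an unadjusted p under 0.05). The lowest p-values in MD against CD were those of Furin (-0.59) and Lman1 (-0.39). In MD+CA against MD they were those of Lman1 (0.33) and Vkorc1 (-0.22), and in MD+CA against CD those of Furin (-0.47) and Vkorc1l1 (-0.21).

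Of 30 other complement components and regulators, 24 were tested. In MD+CA against MD, 19 of the 24 were above 0 (49.7% of all genes), with a median log2 fold change of 0.30. At an unadjusted p under 0.05 were 10 of them, 9 higher and 1 lower (edgeR; 11.6% of all genes were higher and 11.6% lower at that p). After adjustment 2 passed. In MD+CA against MD, C1qa, a chain of C1q, rose from 15.9 ± 5.27 to 32.9 ± 4.08 CPM (SD, n = 4; log2 fold change 1.04, edgeR adjusted p = 0.0243). Cd59b, which protects cells from the pore, fell from 7.31 ± 2.03 to 3.61 ± 0.445 CPM (SD, n = 4; log2 fold change -1.02, edgeR adjusted p = 0.0480). In MD+CA against CD, C1qb rose (1.27, edgeR adjusted p = 0.0313). None passed in MD against CD, where Cd59b (1.30) and Cfhr4 (-0.65) had the smallest p-values (edgeR adjusted p = 0.0749 and 0.140) and 6 had an unadjusted p under 0.05, 3 in each direction. For MD+CA against CD it was 4, all higher. None of these genes passed in any comparison without MD+CA replicate 3 (edgeR). In that fit 9 had an unadjusted p under 0.05 in MD+CA against MD, 8 of them higher. Without MD replicate 2, C1qa alone passed in MD+CA against MD, and C1qa, C1qb and C1qc passed in MD+CA against CD (edgeR). Of 10 complement receptors, 9 were tested. In MD+CA against MD, Itgb2, the β chain of complement receptors 3 and 4, rose (1.49, edgeR adjusted p = 0.0230). Vsig4, a receptor of C3b on resident macrophages, rose there too (1.06, edgeR adjusted p = 0.0419). None passed in the other comparisons, which had 1 and 4 at an unadjusted p under 0.05 (edgeR). The smallest p-values were those of Itgax (1.15) and C5ar2 (0.77) in MD against CD. In MD+CA against CD they were those of Vsig4 (1.076) and Itgb2 (1.003). Without MD+CA replicate 3, Itgb2 was the only receptor that passed in MD+CA against MD (edgeR). Without MD replicate 2, no receptor passed in that comparison, and Vsig4 passed in MD+CA against CD (edgeR).

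Markers of Kupffer cells, the resident macrophages of the liver and a source of C1q, moved with these genes. Of 12 markers, 5 rose in MD+CA against MD (edgeR; C1qa, Cd5l, Csf1r, Marco and Vsig4), and 4 rose in MD+CA against CD (C1qb, Cd5l, Csf1r and Marco). Their summed level was 252 to 314 CPM in CD, 199 to 337 CPM in MD and 422 to 822 CPM in MD+CA, with none of the 12 at 0. When MD+CA replicate 3 was left out, 3 rose in MD+CA against MD and 1 in MD+CA against CD (edgeR). In that fit all 12 log2 fold changes stayed above 0 in both comparisons, with medians of 0.96 and 1.03. At an unadjusted p under 0.05 were 10 and 11 of the 12 (edgeR), against 11 and 12 with all libraries. Of all genes, 130 and 37 passed in that fit, against 378 and 72 with all libraries. Without MD replicate 2, 3 and 7 of the markers rose (edgeR). C1qa, C1qb and Vsig4 are themselves on this list. The part of these cells in the values of the 38 genes was not tested. Of the hepatocyte markers, none passed in any comparison (edgeR; 2, 2 and 0 of 12 at an unadjusted p under 0.05), with medians of -0.02, -0.10 and -0.12. No sinusoidal endothelial (10 tested), stellate (11), bile duct (6), erythroid (5), platelet (2), neutrophil (2) or T and NK cell marker (2) passed in any comparison (edgeR; 4, 4, 1, 0, 0, 1 and 0 at an unadjusted p under 0.05 in MD against CD, 5, 3, 2, 0, 1, 1 and 1 in MD+CA against MD, and 0, 1, 1, 0, 0, 2 and 1 in MD+CA against CD). Ly6g, a neutrophil marker, was at 0.

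Transcription factors and acute phase genes were counted beside the members that carry their motifs. Of 17 hepatocyte transcription factors, 1 changed: Cebpb, a C/EBP factor of the acute phase response, was at 114 ± 77.7 CPM in CD, 285 ± 130.4 CPM in MD and 62.6 ± 9.56 CPM in MD+CA (SD, n = 4) and fell in MD+CA against MD (-2.19, edgeR adjusted p = 0.0195). Of the 17, 8 had an unadjusted p under 0.05 in that comparison, 7 of them lower. None passed without MD+CA replicate 3, and Cebpb alone passed in that comparison without MD replicate 2 (edgeR). None passed in the other comparisons (edgeR; 5 and 0 at an unadjusted p under 0.05), with the smallest p-values at Nr5a2 (-0.70) and Nr0b2 (1.34) in MD against CD and at Stat3 (0.57) and Cebpb (-0.86) in MD+CA against CD. Of 20 acute phase genes, 17 were above 0 in MD+CA against MD (49.7% of all genes), with a median log2 fold change of 1.05. At an unadjusted p under 0.05 were 14 of the 20, 13 higher and 1 lower (edgeR). Against CD, 11 of the 20 had an unadjusted p under 0.05 in MD+CA, all higher. The median for MD+CA against MD was 0.15 without MD+CA replicate 3, with 4 higher and 3 lower at that p in MD+CA against MD and 8 higher in MD+CA against CD. After adjustment, Il6ra, the interleukin-6 receptor, fell in MD+CA against MD (-0.99, edgeR adjusted p = 0.0340). It did not pass without MD replicate 2 (edgeR). Saa3 rose in MD+CA against CD (2.46, edgeR adjusted p = 0.00861). None passed in MD against CD, where 4 had an unadjusted p under 0.05 and Saa3 (1.42) and Il6ra (0.80) had the smallest. Their summed level was 7839 to 9065 CPM in CD, 6960 to 10821 CPM in MD and 10373 to 73703 CPM in MD+CA, the last in replicate 3. The part of an acute phase response in that library in the values of fibrinogen, C3, C6 and C8a was not tested; the values without it are given above.

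Genes that follow the time of day and the handling of tissue were counted as well. Of 6 clock genes, 4 passed both in MD+CA against MD and in MD+CA against CD (edgeR). Bmal1 rose (3.31 and 2.75, edgeR adjusted p = 0.00132 and 0.00756), and Per3 (-3.56 and -2.89), Ciart (-4.35 and -2.90) and Dbp (-3.62 and -3.23) fell. None passed in MD against CD (edgeR; 1 at an unadjusted p under 0.05), where Ciart (1.45) and Per3 (0.67) had the smallest p-values. Bmal1 was at 1.88 ± 0.871 CPM in CD, 1.28 ± 0.507 CPM in MD and 12.7 ± 3.85 CPM in MD+CA (SD, n = 4), and Per3 at 41.5 ± 9.16, 66.0 ± 16.7 and 5.51 ± 4.44 CPM. The labels give no time of collection, so time of day and compound cannot be told apart for the members either. The immediate early genes Fos and Jun, which respond within minutes to stress, were at 1.78 ± 2.15 and 26.1 ± 12.4 CPM in CD, at 54.4 ± 49.6 and 191.8 CPM (50.5 to 300.3 CPM) in MD and at 1.26 ± 0.743 and 31.3 ± 11.9 CPM with the compound (SD, n = 4). Of 6 immediate early genes, Jun rose in MD against CD (2.87, edgeR adjusted p = 0.0459), and all 6 had an unadjusted p under 0.05 there, all higher. The genes Fos (-5.41), Egr1 (-4.74), Ier2 (-3.18), Btg2 (-2.91) and Jun (-2.61) fell in MD+CA against MD, with edgeR adjusted p from 0.0168 to 0.0301. None passed in MD+CA against CD (edgeR; 0 at an unadjusted p under 0.05), where Egr1 (-1.41) and Ier2 (-0.84) had the smallest p-values. With either MD+CA replicate 3 or MD replicate 2 left out, none passed in MD against CD and Fos, Ier2 and Jun passed in MD+CA against MD (edgeR). The part of these genes in the lower values of the members in MD was not tested.

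The division of reads among the transcripts of a gene also differed between groups. Among the members, 57 transcripts of 21 genes were kept. Their group mean share of the gene was at least 5% in the highest group and at most 95% in the lowest. Some reached 5% only in the group where they were high, such as Hc-205 (2.83% in CD, 7.33% in MD) and C4b-203 (2.39% and 10.0%). Transcripts of a gene divide the same reads, so a shift can count more than once, as with Fga-201 and Fga-202. All genes were counted by the same rule. For MD against CD, 12 of the 57, in 7 genes (Hc, Fga, C9, Masp1, C4b, Cfb and C2), had shares that did not overlap between the groups, 21.1% beside 8.78% of all such transcripts. For MD+CA against MD it was 1, C9-203 (5.05% of all), and for MD+CA against CD 0 (1.79% of all). Fga-202, the longer of the fibrinogen α transcripts, took 7.01%, 7.61%, 4.55% and 7.77% of the reads of Fga in CD. It took 19.0%, 25.6%, 12.2% and 15.0% in MD and 18.8%, 6.19%, 5.33% and 4.45% in MD+CA. MD lay above CD in every library, and MD+CA replicate 1 stood with MD. Masp1-203 took 14.2% to 18.4% in CD, 25.8% to 37.0% in MD and 13.8% to 26.4% in MD+CA. C4b-203, which retains an intron, took 1.45% to 3.52%, 3.93% to 18.1% and 1.24% to 8.32%. C2-201 took 50.3% to 94.5%, 8.15% to 49.8% and 28.1% to 96.5%, on as few as 220 reads of the gene in a library. C9-203, a transcript annotated for nonsense-mediated decay, took 4.23% to 9.25%, 0% to 1.77% and 2.94% to 8.88%.

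In some libraries these shares went with a property of the library. The fragment allowance, the bases taken off each transcript's length to give its effective length, was 246, 268, 280 and 258 bases in CD, 230, 221, 261 and 253 bases in MD and 227, 275, 270 and 276 bases in MD+CA. The 3 libraries with the smallest allowance were MD replicates 1 and 2 and MD+CA replicate 1. They had the 3 highest shares of Fga-202 and C4b-203. MD replicates 2 and 1 also had the highest shares of Masp1-203 and Cfb-208 and the lowest of C2-201. MD+CA replicate 1 had less Cfb-208 than MD+CA replicate 3 (16.1% and 19.4%), which has 270 bases. For Hc-205 these 2 had 4.28% and 8.56%, and MD replicate 2 had the highest share, 10.1%. CD replicate 1, at 246 bases, had a smaller allowance than MD replicates 3 and 4, at 261 and 253 bases. Its share of Fga-202 was 7.01%, against 12.2% and 15.0% in those 2, and that of Masp1-203 18.4%, against 26.5% and 25.8%. C4b-203 took 2.99% in it, against 3.93% and 6.20%, and C2-201 68.1%, against 49.8% and 27.8%. The part of fragment length in these shares was not tested. With it as a covariate in the gene model, an alternative chosen after seeing the data, C9 alone passed in MD+CA against MD (edgeR), and C6 passed in MD+CA against CD.

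**Figure D5:**
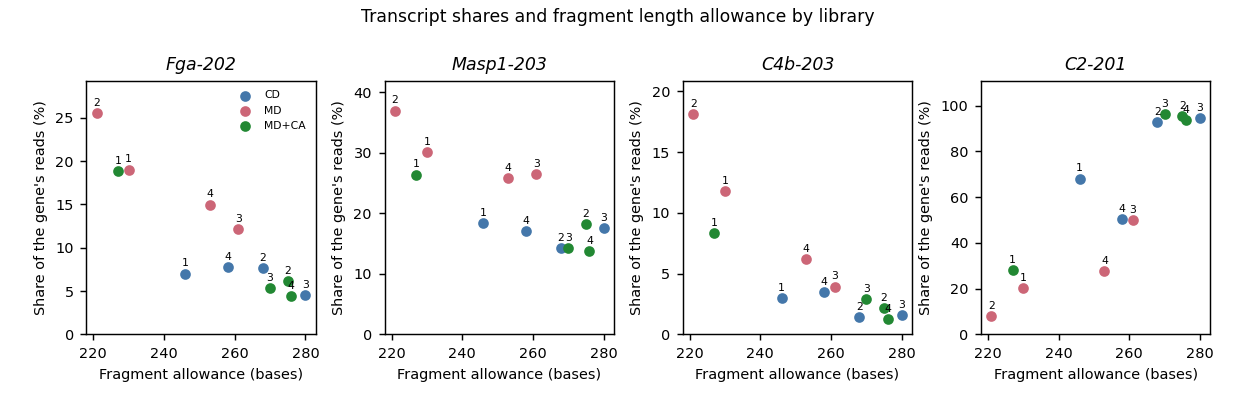
Share of a gene's reads taken by 4 transcripts (vertical axes, percent) against the fragment allowance of the library (horizontal axes, bases). Points are the 12 libraries, coloured by group and numbered by replicate. At the left lie MD replicate 2 (221 bases), MD+CA replicate 1 (227 bases) and MD replicate 1 (230 bases). The shares of Fga-202 and C4b-203 are highest in these 3 libraries. The shares of Masp1-203 are highest and those of C2-201 lowest in MD replicates 2 and 1.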

How the data were processed

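Poly(A) RNA libraries were made from 500 ng of total RNA of snap-frozen liver, per the labels' protocols, and 12 libraries in 3 groups of 4 were analysed. Per the submitters' processing notes, the authors used fastp, Salmon 1.10.3, DESeq2 and the GRCm39 build; the annotation is not given in the sources used here. The deposited files give, per the file headers, an estimated count, TPM and an effective length for each of 147556 transcripts. The estimated counts divide reads between similar transcripts, so the split among near-identical ones is itself an estimate. Counts were summed per gene symbol, rounded, filtered (filterByExpr, minimum count 10) and tested with edgeR 4.0.16 (R 4.3.3; TMM, 1 quasi-likelihood model over the 12 libraries with 9 degrees of freedom left; the common coefficient of biological variation was 0.307), with Benjamini-Hochberg adjustment over 13620 genes and a threshold of 0.05. CPM are scaled by TMM, TPM are sums of the deposited values, and shares are percent of assigned reads. The steps were tested on simulated data. DESeq2 1.42.0, limma 3.58.1 and the other alternatives are in the closing section. Members and lists were chosen with earlier results of these data known. Values in every library are given for members with an adjusted p under 0.05 in any comparison, filled to 12 by the smallest unadjusted p; from each other list, genes that passed are named, otherwise the 2 with the smallest p, and cell type marker lists are given by counts and genes that passed. Counts of these lists without a library were added after seeing the data. Promoter sequences are from RefSeq (GRCm38.p6), which held 30 of the 38 genes; no coordinates of the 2 builds were combined. Replicate numbers were not taken as pairs.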

Additional observations from a re-analysis of the deposited data

Results flagged for a closer look

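In each group of 4 libraries the highest or lowest value of a gene was set against the other 3 by Dixon's test at its 95% critical value for 4 samples. Of 114 groups of values (38 genes in 3 groups), 12 held such a library, where chance alone gives 1 in 20, or 5.7. MD+CA replicate 3 accounted for 4, all high: Fgb at 11411 CPM, C3 at 19435 CPM, C6 at 34.6 CPM and C8a at 901 CPM. In the same group, Proc was low in replicate 4, at 487 CPM, and C2 in replicate 2, at 18.1 CPM. In MD, Klkb1 was high in replicate 1, at 689 CPM, F5 was high in replicate 3, at 557 CPM, and Hc was low in replicate 4, at 221 CPM. In CD, F7 was high in replicate 2, at 609 CPM, C8g was high in replicate 4, at 155 CPM, and Mbl2 was low in replicate 3, at 1008 CPM. MD replicate 2 accounted for none of the 12, although it was the lowest of all libraries for 21 genes.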

How the results depend on the processing

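For MD against CD, 0 of the 38 genes passed with all libraries, 3 with DESeq2, and 1 (C8b) each with limma voom, without the low-count filter and with only the 2 compared groups; leaving out 1 library gave 0. For MD+CA against MD, 3 passed, and 9 with DESeq2, 8 without the filter and 1 (C9) each with only the 2 compared groups, with fragment length as covariate and with both MD replicate 2 and MD+CA replicate 3 left out, when the median log2 fold change was 0.16; the last 2 alternatives were chosen after seeing the data. Leaving out 1 library gave 1 (without MD replicate 2) to 9 (without MD+CA replicate 1), with 7 without MD replicate 3. For MD+CA against CD, 0 passed, and 1 (C6) with DESeq2 and with the covariate and 2 (C6 and C8a) without the filter. With the replicate block, 0, 6 (C3, Fga and Fgg besides C6, C8b and C9) and 1 (C6) passed in the 3 comparisons; the numbers do not pair the libraries by the labels, same-numbered libraries correlated at -0.0769 to 0.349 (9 of 12 over 0.1), and 10 of 12 libraries correlated best with their own number. The causes were not tested. Of all genes, 12, 378 and 72 passed with edgeR in the 3 comparisons, 632, 1207 and 333 with DESeq2, 328, 337 and 179 with limma voom, 2, 193 and 34 with a transcript length offset, 481, 1031 and 397 without the filter, 34, 99 and 46 with only the 2 compared groups, 12, 674 and 154 with the block, 6, 144 and 170 with the covariate, 2, 67 and 60 with both libraries out, and 0 to 26, 110 to 962 and 15 to 172 with 1 library left out. C9 passed in MD+CA against MD under all of these alternatives. Without mitochondrially encoded genes the CD share was 4.15%. Log2 fold changes that turned sign for MD against CD were 0.16 for C8a with a transcript length offset and 0.076 for C6 with the covariate. For MD+CA against CD, leaving out 1 library gave -0.0026 to 0.85 for C8b, -0.14 to 0.58 for Fga, -0.069 to 0.50 for C3, -0.34 to 0.52 for Fgb and -0.10 to 0.80 for Fgg, each lowest without MD+CA replicate 3; with both libraries out the values were -0.0023, -0.14, -0.069, -0.34 and -0.10. Leaving out 1 library gave -0.43 to 0.044 for F10, -0.24 to 0.092 for C1ra and -0.22 to 0.0078 for C8g. Upper-quartile scaling moved the median of all genes in MD against CD from 0.04 to 0.11; no call among the 38 genes changed under it or under RLE scaling. C6, at 99.9 reads per library on average, is the member most limited by depth.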
